A study of Mus musculus with 8 samples.

Results

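Acute phase proteins are plasma proteins whose output from the liver changes during inflammation. The genes described here are the serum amyloid A genes Saa1, Saa2, Saa3 and Saa4, the orosomucoid genes Orm1, Orm2 and Orm3, the haptoglobin gene Hp, the haemopexin gene Hpx and the lipocalin gene Lcn2. They were chosen by name, and all 10 were found among the 24411 gene symbols of the deposited table. RNA sequencing was done on 4 Taf2 knockout libraries and 4 wild-type libraries of mouse hepatocytes, the parenchymal cells of the liver, harvested 2 days after plating. The knockout mice carry a hepatocyte-specific conditional deletion of Taf2, which encodes a subunit of the general transcription factor TFIID, and the wild-type mice are labelled WT with no further allele or treatment named. None of the sources used here gives the strain, the age, the promoter that drives the recombinase, or whether each library came from a separate animal, so the p-values measure the spread between these libraries, which may be technical.

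In inflammation, interleukin-1 and interleukin-6 reach hepatocytes and act through NF-kB, STAT3 and the C/EBP transcription factors to raise transcription of the inducible acute phase genes. Glucocorticoids add to this response. Genes such as Saa1, Saa2 and Orm1 belong to the class driven by interleukin-1 and interleukin-6 together, whereas the fibrinogen genes respond mainly to interleukin-6. Saa4 is known as the constitutive serum amyloid gene. Isolation and plating of hepatocytes is itself known to set off part of this response in culture.

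Library totals ran from 20287023 to 23933589 estimated counts in the knockout and from 18947059 to 22824568 in the wild type. Taf2 stood at 13.9, 15.7, 13.4 and 12.7 CPM (the usual depth-normalised read count, with library sizes scaled by TMM) in the knockout, against 42.5, 46.4, 45.2 and 42.2 CPM in the wild type, a log2 fold change of -1.66, so every library matched its label. Of 12 hepatocyte markers, which include Alb, Ttr and Apoa1 of the negative acute phase list, 7 were higher, 3 lower (Apob, Cps1 and Apoa1) and 2 did not pass. Their sum was 66837 to 73785 CPM in the knockout and 51936 to 56664 CPM in the wild type, and without Alb it was 13912 to 14358 CPM in the knockout and 15455 to 16562 CPM in the wild type. All 11 tested macrophage markers were higher in the knockout, with sums of 237 to 267 CPM in the knockout and 87.8 to 117 CPM in the wild type. Most of these sums was Cd68, at 172 CPM in the knockout and 84.1 CPM in the wild type. The median log2 fold change of the 11 markers was 2.53. All 8 tested endothelial markers were higher as well (118 to 125 CPM in the knockout, 42.7 to 48.7 CPM in the wild type), as were 8 of 10 stellate cell markers (142 to 155 CPM in the knockout, 71.4 to 76.5 CPM in the wild type), of which Acta2 was lower. Most of the stellate sums was Reln, at 102 CPM in the knockout and 61.7 CPM in the wild type. The median log2 fold change was 1.71 for the endothelial and 2.10 for the stellate markers. In the wild-type libraries Emcn had 6 to 13 counts, Lrat 8 to 25, Col1a1 3 to 11, Col1a2 0 to 4 and Pdgfrb 3 to 7. These genes would not have passed the filter on low counts without the knockout libraries, where they were higher. Both medians rest in part on such genes. Cholangiocyte markers summed to 153 to 181 CPM in the knockout and 116 to 129 CPM in the wild type, mostly Sox9 and Spp1. Of 4 tested markers, these 2 were higher. The other 2 were lower: Krt19, at 13.8 CPM in the knockout and 19.5 CPM in the wild type, and Krt7, at 0.720 CPM in the knockout and 2.37 CPM in the wild type. Neutrophil markers summed to 1.74 to 2.35 CPM in the knockout and 0.104 to 0.562 CPM in the wild type. Mmp8, the only one of them tested, was higher at 1.57 ± 0.311 CPM in the knockout and 0.178 ± 0.134 CPM in the wild type. Its counts were 29 to 40 in the knockout and 1 to 7 in the wild type. It passed the filter on low counts through the knockout libraries alone, so it could be tested only because it was higher there. Mpo, Elane, Camp and Ltf were at 0 in all 8 libraries. Lymphocyte markers summed to 0.899 to 1.09 CPM in the knockout and 0.0469 to 0.522 CPM in the wild type. Ptprc, a marker of all leukocytes and the only one of them tested, was higher, with 18 to 22 counts in the knockout and 1 to 8 in the wild type. It too passed the filter through the knockout libraries alone. Cd3g, Cd8a, Ms4a1 and Nkg7 were at 0 in all libraries.

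The comparison of the genotypes asks how the loss of Taf2 changes transcript levels in these cells. The inducible serum amyloid genes Saa1, Saa2 and Saa3 were lower in the knockout, at 48.6%, 40.7% and 29.1% of their wild-type levels, whereas Saa4 was higher at 169.8%. Haptoglobin stood at 63.3% of its wild-type level, and haemopexin, lipocalin 2 and Orm1 at 82.4%, 84.3% and 84.3%. Orm2 was at 73.4%, and Orm3 did not pass the test. In all, edgeR called 9 of the 10 genes at an adjusted p under 0.05, 8 lower and 1 higher, and their median log2 fold change was -0.36. Across the 12122 genes tested 61.4% were called, 31.2% lower and 30.2% higher, and the median was -0.0035. Saa1, Saa2 and Saa3, 3 of the 10, were lower by at least 1 on the log2 scale, against 2.6% of all genes tested. The knockout and wild-type libraries did not overlap for 9 of the 10 genes, against 54.7% of all genes tested. All 10 genes passed the filter on low counts, and the smallest count of any of them in any library was 123. A bulk library cannot tell fewer cells of a type from less RNA per cell.

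**Figure D1:**
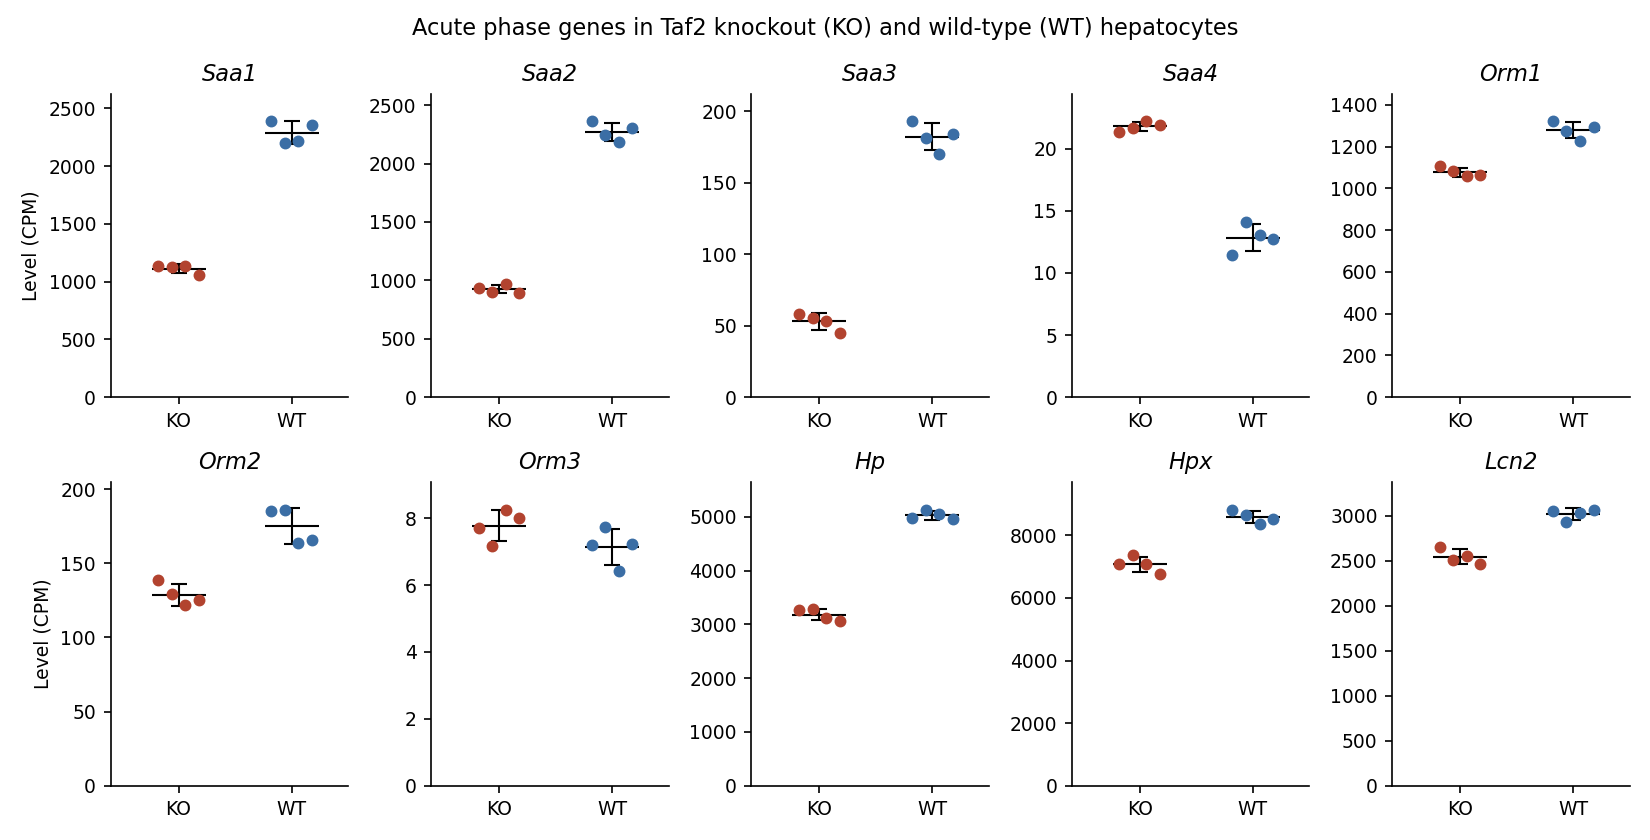
Level in CPM (vertical axes, each from 0) of the 10 acute phase genes in the 4 knockout libraries (KO, red) and the 4 wild-type libraries (WT, blue). Points are libraries and lines are means ± SD. The knockout points lie below the wild-type points for 8 genes, above them for Saa4, and overlap them for Orm3.

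Saa1 and Saa2 encode the main circulating serum amyloid A proteins, which are carried on high-density lipoprotein. Saa1, on chromosome 7 from 46740497 to 46742980 on the minus strand (build mm10), was at 1138, 1126, 1135 and 1053 CPM in the knockout libraries, against 2389, 2201, 2212 and 2356 CPM in the wild-type libraries. The knockout values lay close together apart from that of replicate 4, and all were below the lowest wild-type value (log2 fold change -1.04, SE 0.039, edgeR adjusted p = 9.66e-15). Saa2 lies next to it on the plus strand, from 46751790 to 46754313, and was at 939, 904, 966 and 891 CPM in the knockout, against 2364, 2242, 2184 and 2304 CPM in the wild type. The groups did not overlap (log2 fold change -1.30, SE 0.037, edgeR adjusted p = 2.76e-16). Only 188 of the 3784 genes that were lower had a more negative fold change than Saa2.

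Saa3, on the same chromosome from 46711998 to 46715700 (minus strand), encodes a serum amyloid that in mice is also made outside hepatocytes, in macrophages and fat. It was at 58.4, 55.1, 53.2 and 45.1 CPM in the knockout libraries, against 193, 182, 170 and 184 CPM in the wild-type libraries. Its log2 fold change of -1.78 (SE 0.058, edgeR adjusted p = 1.73e-15) was the most negative of the 10 genes, and 72 genes tested had a called fall of greater size. The 11 macrophage markers moved the other way in the same libraries, as given above, though Adgre1 passed the filter through the knockout libraries alone. The part of macrophages in the level of Saa3 was not tested. Saa4, from 46727998 to 46732603 (minus strand), was at 21.4, 21.6, 22.2 and 21.9 CPM in the knockout and at 11.5, 14.1, 13.05 and 12.7 CPM in the wild type. All knockout libraries were above all wild-type libraries, with a log2 fold change of 0.77 (SE 0.066, edgeR adjusted p = 3.86e-09). It is the only one of the 10 genes called higher. All its counts were whole numbers.

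The 4 serum amyloid genes lie within 1 stretch of chromosome 7 and went in both directions. The 200 bases before their RefSeq starts are therefore shown (build GRCm38.p6, read 5′ to 3′ on the gene's strand). The gene positions given above come from GENCODE, whose starts can differ, so the Saa2 and Saa3 windows reach into the GENCODE genes. Capitals mark matches to TTNNGNAA, a short form of the C/EBP motif, on either strand. The windows are chr7:46742981-46743180 (- strand) for Saa1, chr7:46751633-46751832 (+ strand) for Saa2, chr7:46715677-46715876 (- strand) for Saa3 and chr7:46732604-46732803 (- strand) for Saa4.
Saa1: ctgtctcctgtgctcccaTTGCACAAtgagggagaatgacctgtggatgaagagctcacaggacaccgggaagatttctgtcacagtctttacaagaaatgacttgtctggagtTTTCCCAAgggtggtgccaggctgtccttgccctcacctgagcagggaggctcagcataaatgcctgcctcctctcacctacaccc
Saa2: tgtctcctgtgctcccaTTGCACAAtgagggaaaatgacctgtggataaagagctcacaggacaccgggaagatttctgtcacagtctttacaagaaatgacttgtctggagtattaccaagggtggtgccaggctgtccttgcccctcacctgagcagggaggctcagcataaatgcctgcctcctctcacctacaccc
Saa3: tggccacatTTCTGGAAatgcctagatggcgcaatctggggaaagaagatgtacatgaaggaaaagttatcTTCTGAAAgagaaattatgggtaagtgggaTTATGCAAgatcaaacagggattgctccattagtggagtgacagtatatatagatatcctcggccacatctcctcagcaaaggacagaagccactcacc
Saa4: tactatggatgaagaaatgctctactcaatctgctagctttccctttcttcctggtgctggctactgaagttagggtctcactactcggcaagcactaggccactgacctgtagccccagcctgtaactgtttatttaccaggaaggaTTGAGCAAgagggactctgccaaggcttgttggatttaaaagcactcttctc
The Saa1 and Saa2 sequences were identical at 98.0% of 199 aligned bases. Saa1 held the motif from -182 to -175 and from -86 to -79 before its start, and Saa2 from -183 to -176 only. Saa3 held it at 3 places and Saa4 at 1, from -52 to -45. Such windows were found for 8 of the 10 genes, all but Orm1 and Hp. Those of Hpx and Lcn2 also reached into the GENCODE genes, and that of Lcn2 (chr2:32387740-32387939) lay wholly inside. TTNNGNAA was present in 7 of these 8 and in 30.0% of all 32851 windows of the same length. Windows of the same gene family, such as the near-identical ones of Saa1 and Saa2, are not independent of each other. CTGGNAA, a form of the interleukin-6 response element, was in 4 of the 8 (Saa3, Saa4, Hpx and Lcn2) and in 16.2% of all windows, and in Saa3 it overlapped a TTNNGNAA match. TATAAA was in 2 of the 8 (Orm2 and Orm3) and in 9.96% of all windows. A form of the NF-kB motif, GGG and TTCC with 3 bases of any kind between them, was in 0 of the 8 windows and in 3.91% of all. All motifs were searched on both strands, and a match is a description of the sequence. Looser forms of the motifs were not searched, so a window without a match may still hold a site.

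The orosomucoids, also called alpha-1 acid glycoproteins, bind drugs and other small molecules in plasma. Their genes lie side by side on chromosome 4 (plus strand), with Orm1 from 63344560 to 63348163, Orm3 from 63356162 to 63359511 and Orm2 from 63362449 to 63365878. Orm1, the most abundant of them, was at 1106, 1085, 1059 and 1064 CPM in the knockout, against 1323, 1274, 1229 and 1293 CPM in the wild type (log2 fold change -0.25, SE 0.034, edgeR adjusted p = 3.11e-06). Orm2 was at 139, 129, 122 and 125 CPM in the knockout and at 185, 186, 164 and 166 CPM in the wild type (log2 fold change -0.45, SE 0.048, edgeR adjusted p = 1.16e-07). Neither gene's groups overlapped. The third gene, Orm3, was at 7.70, 7.15, 8.26 and 8.01 CPM in the knockout and at 7.20, 7.73, 6.42 and 7.22 CPM in the wild type. Its groups overlapped (log2 fold change 0.12, SE 0.086, edgeR adjusted p = 0.224).

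Haptoglobin binds free haemoglobin and haemopexin binds free haem, and together they clear both from plasma. Hp, on chromosome 8 from 109575128 to 109579172 (minus strand), was at 3263, 3283, 3115 and 3068 CPM in the knockout libraries, against 4983, 5134, 5049 and 4952 CPM in the wild-type libraries. Its log2 fold change was -0.66 (SE 0.035, edgeR adjusted p = 2.04e-12). Hpx, on chromosome 7 from 105591613 to 105600137 (minus strand), was at 7098, 7359, 7090 and 6780 CPM in the knockout and at 8825, 8660, 8358 and 8516 CPM in the wild type (log2 fold change -0.28, SE 0.036, edgeR adjusted p = 1.19e-06). Both genes were lower in all 4 knockout libraries than in any wild-type library. By mean CPM Hpx ranked 9 among all genes in the knockout and 4 in the wild type, and Hp ranked 30 in the knockout and 15 in the wild type.

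Lipocalin 2 sequesters bacterial siderophores and so withholds iron from microbes, and besides inflamed hepatocytes it is made by neutrophils and macrophages. Lcn2, on chromosome 2 from 32384633 to 32388252 (minus strand), was at 2654, 2514, 2554 and 2463 CPM in the knockout, against 3050, 2926, 3033 and 3069 CPM in the wild type. The groups did not overlap, although the difference was among the smaller ones of the 10 genes (log2 fold change -0.25, SE 0.035, edgeR adjusted p = 3.94e-06). Of the genes called lower, 2423 had a more negative fold change than Lcn2 and 72 a more negative one than Saa3. In the same libraries the macrophage markers and the neutrophil marker Mmp8 were higher in the knockout. Of these, Mmp8 and the macrophage marker Adgre1 passed the filter through the knockout libraries alone. Another 4 neutrophil markers were at 0 throughout, as given above. The part of macrophages and neutrophils in the level of Lcn2 was not tested.

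**Figure D2:**
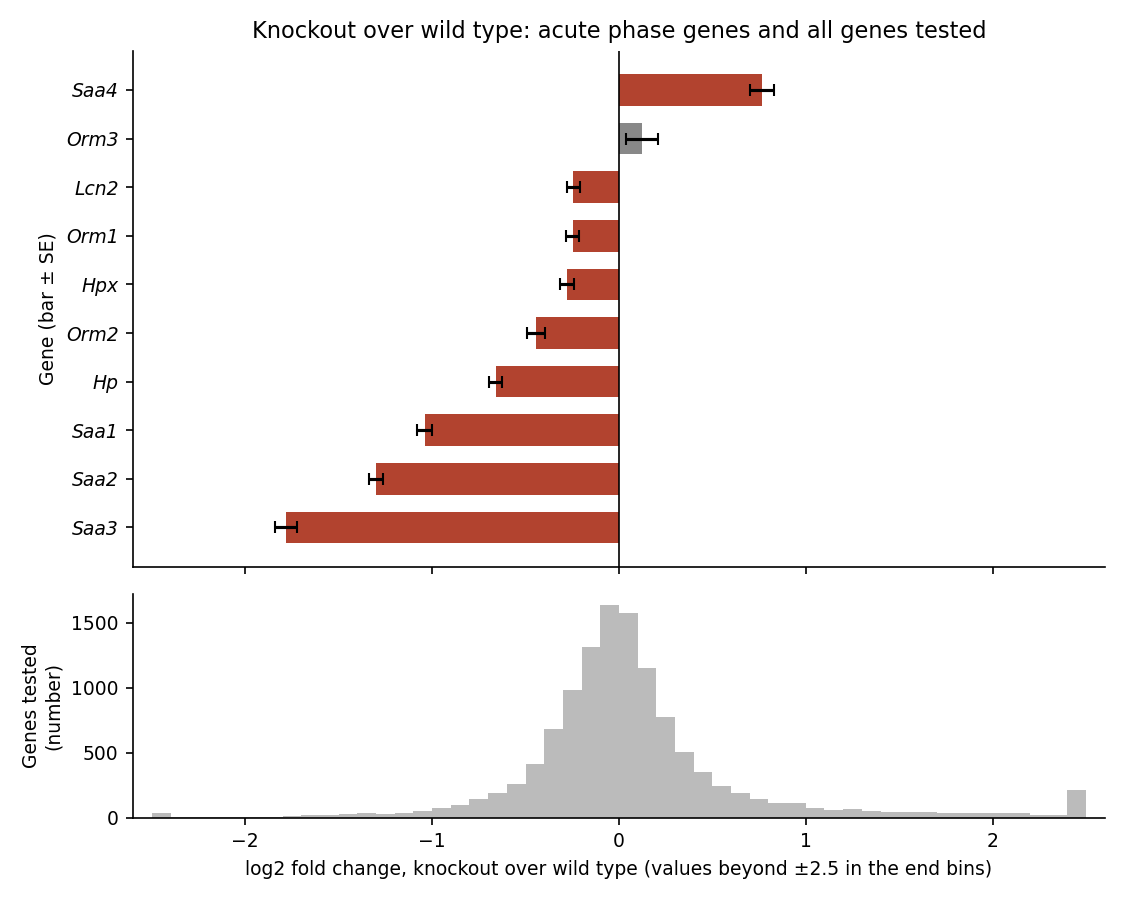
Upper panel, log2 fold change (knockout over wild type, horizontal axis) of each acute phase gene, with bars for the value, whiskers for its SE, red for an edgeR adjusted p under 0.05 and grey otherwise. Lower panel, number of genes tested (vertical axis) by log2 fold change on the same scale. The acute phase genes run from -1.78 for Saa3 to 0.77 for Saa4, and the median of all genes tested is -0.0035.

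The 10 genes took 1.54% to 1.63% of all counts in the knockout libraries and 2.27% to 2.36% in the wild-type libraries. Their summed level was 16138 ± 441 CPM in the knockout and 22859 ± 373 CPM in the wild type (SD, n = 4 each). Hp made up 27.5% of the difference between these sums, Hpx 22.4%, Saa2 20.1% and Saa1 17.5%, whereas Saa3, with the largest fold change, made up 1.92%. Within a genotype the genes varied little: the SD was between 1.68% and 10.7% of the mean in the knockout and between 1.60% and 8.48% in the wild type. Knockout replicate 4 had the lowest level of 6 of the 10 genes among the knockout libraries, and wild-type replicate 3 of 6 of the 10 among the wild-type libraries.

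Levels of different genes were compared per kilobase of transcript, with lengths from GENCODE transcripts matched to the RefSeq transcripts in the table. In the knockout Hpx was the most abundant at 4724 ± 158 CPM per kilobase, followed by Lcn2 at 2783 ± 88.4, Hp at 2366 ± 79.5, Saa1 at 1828 ± 66.1, Saa2 at 1526 ± 56.3 and Orm1 at 1392 ± 27.8 (SD, n = 4). Orm2 stood at 166 ± 9.44 and Saa3 at 95.4 ± 10.2 CPM per kilobase, and Saa4 (10.4 ± 0.175) and Orm3 (10.1 ± 0.614) came last, with overlapping ranges. In the wild type Hpx also came first, at 5730 ± 133 CPM per kilobase. Saa1 at 3760 ± 159, Saa2 at 3751 ± 128 and Hp at 3739 ± 59.8 followed with overlapping ranges, ahead of Lcn2 at 3300 ± 69.7 and Orm1 at 1651 ± 50.7. Saa3 at 328 ± 17.1 CPM per kilobase then stood above Orm2 at 226 ± 15.5, Orm3 at 9.24 ± 0.697 and Saa4 at 6.13 ± 0.520. Lcn2 thus stood above Saa1, Saa2 and Hp in the knockout and below them in the wild type.

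Ratios between genes within a library do not depend on how libraries are scaled. Saa1 over Saa2 was at 1.21, 1.25, 1.18 and 1.18 in the knockout libraries, against 1.01, 0.982, 1.01 and 1.02 in the wild-type libraries, where the counts of both genes were nearly equal. The log2 ratio was 0.27 ± 0.039 in the knockout and 0.0099 ± 0.025 in the wild type (SD, n = 4 each), a difference of 0.26. Saa3 over Saa1 was between 0.0428 and 0.0514 in the knockout and between 0.0769 and 0.0825 in the wild type, a difference of -0.75 on the log2 scale. Thus Saa3 was lower relative to Saa1 in every knockout library. Orm2 over Orm1 differed by -0.20 on the log2 scale, Orm3 over Orm1 by 0.37 and Hp over Hpx by -0.38. Hp over Hpx was between 0.439 and 0.460 in the knockout and between 0.565 and 0.604 in the wild type. In each of the 5 ratios the genotypes did not overlap, as was the case for 54.7% of single genes tested. How often the ratios of other gene pairs do so was not tested. The exact two-sided permutation test gave p = 0.0286 for each ratio. This is the smallest that 4 against 4 libraries allow, and it stayed 0.0286 after adjustment over the 5 ratios.

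**Figure D3:**
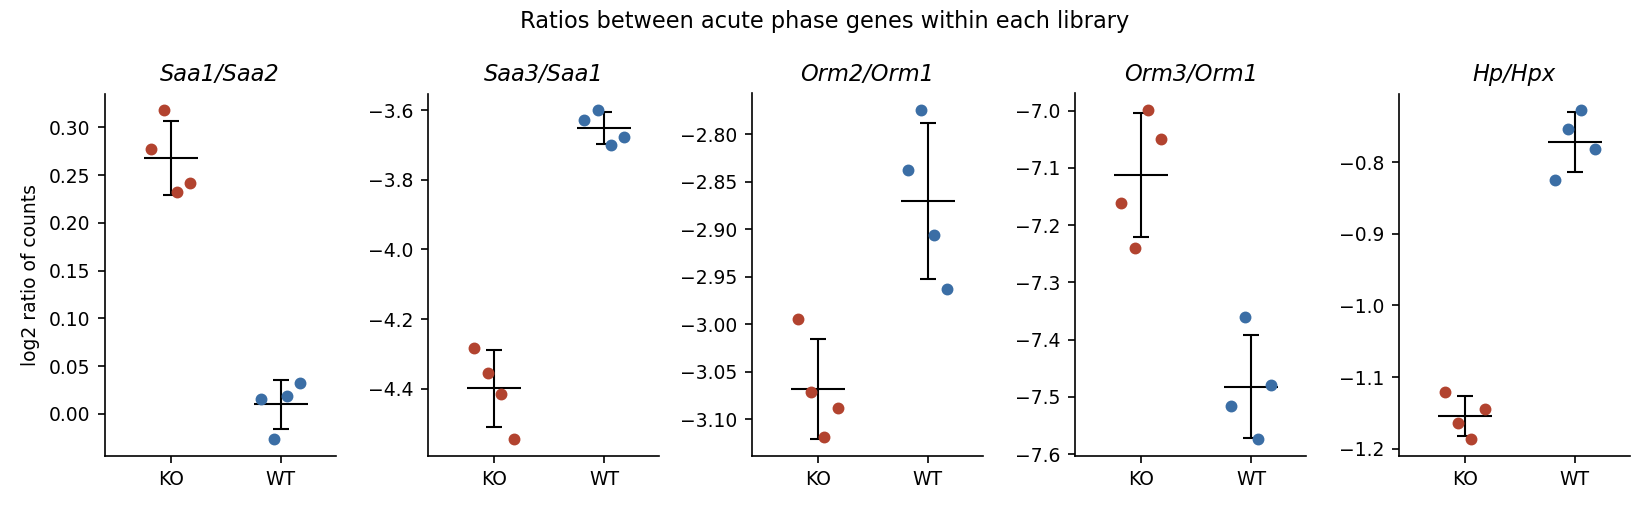
Log2 ratio of counts between pairs of acute phase genes (vertical axes, each with its own range) in the 4 knockout libraries (KO, red) and the 4 wild-type libraries (WT, blue), with means ± SD. In each of the 5 pairs the genotypes do not overlap, and the mean log2 ratio of Saa1 to Saa2 is 0.27 in the knockout and 0.0099 in the wild type.

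Part of these counts was divided by the counting program among genes with near-identical sequence. The Saa1 and Saa2 transcripts were identical at 94.4% of 606 aligned bases and shared 13.2% of the 50-base words of Saa1. Orm1 and Orm2 were identical at 91.0% of 775 bases with 20.4% of such words shared, and Orm1 and Orm3 at 86.5% of 772 bases with 2.20% shared. Counts of Saa1, Saa2, Orm1, Orm2 and Orm3 were not whole in any of the 8 libraries, and those of Saa3 not in 5, so the values of the single genes and the ratios within each family are uncertain to that extent. With Saa1 and Saa2 summed to 1 feature the log2 fold change was -1.16 (edgeR adjusted p = 1.59e-15), at 2038 ± 69.2 CPM in the knockout and 4563 ± 171 CPM in the wild type. With Orm1, Orm2 and Orm3 summed it was -0.27 (edgeR adjusted p = 1.39e-06).

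By root mean square difference of centred log2 CPM over the 8 libraries, among 9444 other genes whose mean CPM was 5 or more, the genes nearest to Saa4 were Herc6 (0.037), Skil (0.048) and Eif2ak2 (0.048). Those nearest to Saa3 were Mylk (0.122), Lamb3 (0.127) and Taf2 (0.128). Their log2 fold changes were -1.68, -1.75 and -1.66, against -1.78 for Saa3. This measure includes the difference between genotypes, so genes with a like fold change come out near each other. Mylk was at 11.3 ± 1.35 CPM in the knockout and 36.4 ± 0.397 CPM in the wild type (SD, n = 4 each). Herc6 was at 20.9 ± 0.490 CPM in the knockout and 12.4 ± 0.899 CPM in the wild type.

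Other positive acute phase genes, whose output is known to rise in inflammation, went both ways. Of 24 tested, 12 were higher, 9 lower and 3 did not pass, with a median log2 fold change of 0.11. For this and the lists below, the share over all genes tested was 30.2% higher and 31.2% lower. Hamp, which encodes the iron hormone hepcidin, was at 20.8 ± 3.81 CPM in the knockout and 1.25 ± 0.540 CPM in the wild type (log2 fold change 4.05), with counts that were not whole in 3 libraries. Serpina3m, of the family of protease inhibitors related to antichymotrypsin, was at 1081 ± 65.1 CPM in the knockout and 492 ± 37.1 CPM in the wild type, with counts that were not whole in any of the 8 libraries. The metallothionein gene Mt2 was at 1698 ± 117 CPM in the knockout and 1095 ± 49.2 CPM in the wild type. The most abundant of the list, Serpina3k, was at 7953 ± 300.3 CPM in the knockout and 7166 ± 254 CPM in the wild type. Apcs, the gene of serum amyloid P component, a pentraxin that is itself an acute phase reactant in mice, was at 77.1 ± 6.68 CPM in the knockout and 162 ± 8.36 CPM in the wild type (log2 fold change -1.07). The 3 fibrinogen chain genes, named after their values were seen, were all higher. Fga had a log2 fold change of 0.39 (SE 0.052), Fgb of 0.30 (SE 0.043) and Fgg of 0.49 (SE 0.043), with a largest edgeR adjusted p of 4.43e-06. The 9 lower genes of the list, against 12 higher, include Itih3 (-0.65), Fgl1 (-0.56), Cp (-0.52), Lbp (-0.48) and Itih4 (-0.43). A difference between genes driven by different cytokines was not tested.

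Negative acute phase genes, whose output is known to fall in inflammation, were higher in 8 of 12 cases and lower in 3, with a median log2 fold change of 0.27. Ttr, which encodes the thyroxine and retinol-complex carrier transthyretin, was at 1694 ± 42.8 CPM in the knockout and 1146 ± 37.2 CPM in the wild type. Rbp4, the retinol-binding protein gene, was at 1402 ± 31.8 CPM in the knockout and 1004 ± 37.7 CPM in the wild type. Alb, the albumin gene and the most abundant of the list, had a log2 fold change of 0.54 (SE 0.044). Apoa1, which encodes the main protein of high-density lipoprotein, went the other way, at 3756 ± 62.8 CPM in the knockout and 4588 ± 58.8 CPM in the wild type.

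Among genes of the interleukin-6 receptor and STAT3, 4 of 12 were higher, 2 lower and 6 did not pass, with a median of 0.042. Across all genes tested 30.2% were higher and 31.2% lower. Socs3, a feedback inhibitor that STAT3 induces, was at 8.67 ± 0.645 CPM in the knockout and 4.62 ± 0.905 CPM in the wild type (log2 fold change 0.91). The receptor gene Il6ra had a log2 fold change of 0.38 (SE 0.060) and Stat3 of 0.14 (SE 0.036), while the phosphatase gene Ptpn11 had one of -0.16 (SE 0.036). Il6 itself had 1 count in 1 knockout library and 0 counts in the other 7 libraries, so it was not tested. Of the interleukin-1, Toll-like receptor and NF-kB genes, 6 of 17 were higher, 7 lower and 4 did not pass, with a median of -0.050. Il1r1, the signalling receptor for interleukin-1, was at 13.3 ± 1.09 CPM in the knockout and 23.2 ± 0.992 CPM in the wild type (log2 fold change -0.80, SE 0.066). The tumour necrosis factor receptor gene Tnfrsf1a and the kinase gene Ikbkb had log2 fold changes of -0.21 and -0.18. Nfkbiz, an NF-kB cofactor that these receptors induce, was higher by 0.70, and Rela, the most abundant of the list and the gene of the NF-kB subunit p65, by 0.12. Il1b and Tnf had at most 1 count in any library.

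Of 10 acute phase transcription factor genes, 4 were higher, 4 lower and 2 did not pass, with a median log2 fold change of 0.12. All 3 C/EBP genes of the list were higher. Cebpb was at 141 ± 7.54 CPM in the knockout and 88.4 ± 4.81 CPM in the wild type, Cebpd at 11.3 ± 0.883 CPM in the knockout and 6.69 ± 0.513 CPM in the wild type, and Cebpa at 51.4 ± 2.79 CPM in the knockout and 36.6 ± 4.13 CPM in the wild type. Nr3c1, the glucocorticoid receptor gene, had a log2 fold change of 0.21. Foxa1 and Foxa2, which encode hepatocyte-enriched DNA-binding factors, had log2 fold changes of -0.56 and -0.17. Hnf4a was at 366 ± 1.86 CPM in the knockout and 356 ± 8.02 CPM in the wild type (edgeR adjusted p = 0.268), and Onecut1 had an edgeR adjusted p of 0.224.

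Receptors and partners of the acute phase proteins were tested in 7 of 11 cases, with 4 higher, 2 lower and a median log2 fold change of 0.14. Hmox1, the haem oxygenase that breaks down the haem taken up with haemopexin, was at 772 ± 48.4 CPM in the knockout and 169 ± 7.91 CPM in the wild type (log2 fold change 2.19). Lrp1, a receptor for haem-laden haemopexin, was at 265 ± 10.01 CPM in the knockout and 392 ± 27.5 CPM in the wild type (log2 fold change -0.57). Cd163, the macrophage receptor for haptoglobin bound to haemoglobin, was at 6.54 ± 0.340 CPM in the knockout and 2.13 ± 0.103 CPM in the wild type, and macrophage markers were higher in the same libraries. The lipid transporter gene Abca1 had a log2 fold change of -0.59, and the lipoprotein receptor gene Scarb1, which also binds serum amyloid A, of 0.14. Fpr1, a formyl peptide receptor gene of myeloid cells, stood at 0.977 ± 0.181 CPM in the knockout and 0.155 ± 0.114 CPM in the wild type. With 15 to 25 counts in the knockout and 0 to 5 in the wild type, it passed the filter through the knockout libraries alone. Hmox2 was at 50.7 ± 2.02 CPM in the knockout and 51.9 ± 3.41 CPM in the wild type (edgeR adjusted p = 0.549). The lipocalin 2 receptor gene Slc22a17 had 1 to 4 counts in the knockout libraries and 0 in the wild-type libraries and was not tested, as were Lrp2, Fpr2 and Ager.

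**Figure D4:**
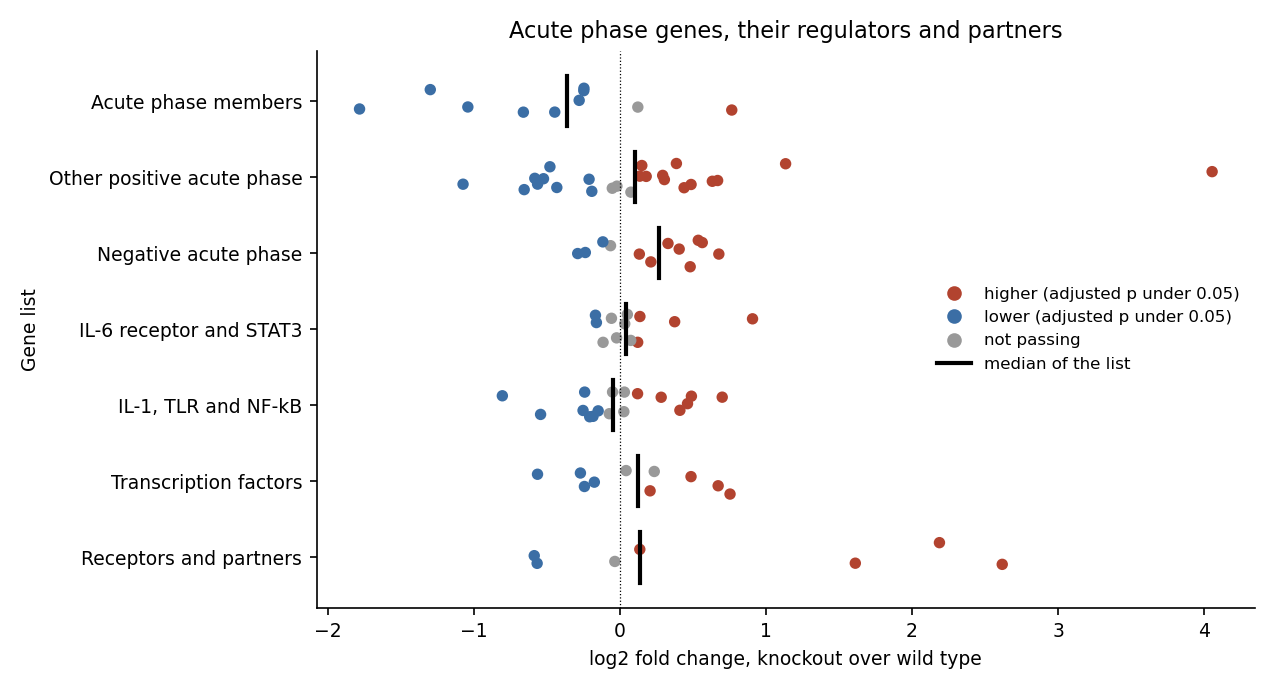
Log2 fold change (knockout over wild type, horizontal axis) of each tested gene in the acute phase group and in 6 related gene lists (rows), in red where higher and blue where lower at an edgeR adjusted p under 0.05 and grey otherwise, with a black bar for the median. The median is -0.36 for the acute phase genes, 0.11 for other positive acute phase genes and 0.27 for negative acute phase genes.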

How the data were processed

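RNA of cultured hepatocytes was sequenced in 2 rounds, per the labels' protocols. The authors deposited expected counts per gene, also called estimated counts, made with RSEM on build mm10, per the submitters' processing notes. None of the sources used here gives the aligner, versions or strand setting. Besides the 8 columns named for these libraries, all with the suffix set2, the table holds 8 others, which were left out. How this suffix relates to the 2 rounds of sequencing was not tested.

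Expected counts were rounded, filtered with filterByExpr (minimum count 10), scaled by TMM and tested with edgeR's quasi-likelihood test, knockout over wild type with no other term. The Benjamini-Hochberg adjustment ran over all 12122 genes, with a threshold of 0.05. CPM values use unrounded counts and TMM-scaled library sizes, SE is the size of the log2 fold change over the square root of F, and ratios had 0.5 added to each count. The fit was tested on simulated data in which far fewer genes were changed than were called here. Its scaling and error control at the share called here were therefore not tested. Same-genotype libraries were compared in pairs (chi-square per degree of freedom 3.18 to 8.62), and none agreed within sampling noise. Tools were R 4.3.3, edgeR 4.0.16, limma 3.58.1, DESeq2 1.42.0, Python 3.11.15, SciPy 1.17.1 and Biopython 1.88. Gene positions come from GENCODE on the same build.

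Members and lists were chosen with earlier results of these data known. Named from each list were up to 3 called genes of the commoner direction and 1 of the other by smallest p, the most abundant gene, all transcription factors and receptors tested, and the genes nearest to Saa3 and Saa4; other names were chosen after their values were seen. The single values of some list genes are not reported here. Alternatives were other scalings, filters, tests, pairing, thinning, leaving out each library, and summing near-identical genes.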

Additional observations from a re-analysis of the deposited data

Results flagged for a closer look

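Of 112 sets of 4 libraries checked, 6 held a library far from the other 3, where chance flags about 5%. Saa1 was at 1053 CPM in knockout replicate 4, against 1126 to 1138 CPM in the other knockout libraries. Rela was at 170.1 CPM in 1 knockout library, against 158.1 to 158.4 CPM in the others. In the wild type, Apoa1 was at 4676 CPM in 1 library against 4555 to 4562 CPM, Tnfrsf1a at 115 CPM against 110.1 to 110.4 CPM, Foxa1 at 18.9 CPM against 15.3 to 15.7 CPM, and Eif2ak2 at 45.9 CPM against 52.4 to 53.3 CPM.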

How the results depend on the processing

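The count of acute phase genes called, 9 of 10, was the same in all 16 alternatives, and the count of all genes called ran from 7027 to 8004. The replicate numbers in the titles did not pair the libraries: deviations of same-numbered libraries correlated at -0.0686 to 0.0114, and with the numbers as a replicate block 7437 genes were called in place of 7447. In sign-flip tests with that block the 5 ratio differences (0.26 for Saa1/Saa2, -0.75 for Saa3/Saa1, -0.20 for Orm2/Orm1, 0.37 for Orm3/Orm1 and -0.38 for Hp/Hpx) reached an exact p = 0.125, the smallest that 4 pairs allow. Without 1 library they ran from 0.24 to 0.27, -0.79 to -0.70, -0.23 to -0.17, 0.33 to 0.41 and -0.40 to -0.37 in the same order, at an exact permutation p = 0.0571, the smallest that 4 against 3 libraries allow. Log2 fold changes changed sign for Hmox2 without wild-type replicate 1 (9.3e-05, in a range of -0.067 to 9.3e-05 over the libraries left out; the cause was not tested) and for Orm3 when summed with Orm1 and Orm2 (-0.27), where the abundant Orm1 sets the value. No other of the 51 named genes crossed the threshold or changed sign where it was tested; Fpr1 was not tested under the stricter filter on low counts, which left 3 of the receptor and partner genes higher in place of 4. Among marker lists, the neutrophil, stellate, cholangiocyte and lymphocyte counts of called genes moved by over 1.5 times in 15 list counts.

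Depth limits genes with few counts, such as the cytokine genes, which were not tested. Counts of the Saa and Orm families depend on how reads were divided among copies.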
